A study of Mus musculus with 3 samples.

Results

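The genes described here are 34 genes of cholesterol and fatty acid synthesis, taken by name from the 35019 gene names or identifiers of the array. They fall into 4 roles, with 17 genes of sterol synthesis, 6 of sterol uptake and regulation, 8 of fatty acid synthesis, and 3 of cholesterol efflux, namely *Abca1*, *Abcg1* and *Apoe*. RNA of 3 kinds of ES cells was hybridised to 3 arrays each, namely *Nr0b1* KO/Y, *Nr0b1* fl-/Y +Tx, treated for 4 days with 4-hydroxy tamoxifen (Tx), and untreated *Nr0b1* fl-/Y -Tx. The study calls the 3 arrays of a group biological triplicates. *Nr0b1*, also called *Dax1*, is X-linked and encodes an orphan nuclear receptor that lacks a DNA binding domain. All groups derive from the male EB5 line, a derivative of E14tg2a ES cells, and carry a *MerCreMer* transgene under the ubiquitous CAG promoter together with *Egfp*. In the -Tx cells the second exon of *Nr0b1* is flanked by *loxP* sites, Tx activates the recombinase that removes it, and the KO/Y cells are lines established from Tx-treated cells that had lost it. No array of Tx-treated cells without the floxed allele was analysed here, so that the Tx itself and the loss of *Nr0b1* cannot be told apart in the +Tx group. The number of KO/Y clones behind the 3 arrays is not given in the sources used here.

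Cholesterol is built from acetyl-CoA through mevalonate, isoprenoid diphosphates and squalene to lanosterol, which is then trimmed to cholesterol by a chain of demethylases, reductases and isomerases. The transcription factors SREBF1 and SREBF2 switch on these genes when membrane sterol is low, SCAP escorts them from the endoplasmic reticulum to the Golgi for activation, and the INSIG proteins hold them back when sterol is plentiful. Fatty acid synthesis shares the acetyl-CoA that ATP citrate lyase provides and is driven mainly by SREBF1, whereas the efflux transporters ABCA1 and ABCG1, which load cholesterol onto apolipoproteins, are targets of the oxysterol-sensing liver X receptors. Proliferating ES cells make membrane continuously and carry the transcripts of most of these enzymes.

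A signal is given throughout as the log2 of the background-subtracted Cy3 intensity minus the 75th percentile of its array, and a difference between groups is a log2 fold change from limma fitted over all 9 arrays and 22434 genes. A gene is called at an adjusted p under 0.05, and a second, stricter rule asks also for a change over 2-fold. *Nr0b1* itself, the check of the labels, averaged -6.26 ± 0.0939 in KO/Y, -2.55 ± 0.126 in +Tx and 4.1 ± 0.0837 in -Tx ES cells (SD, n = 3 each), and was well above background on 0 of the 3 KO/Y arrays. The arrays detected 28820 to 32516 probes above background. The 3 -Tx arrays and +Tx array 1 were on 1 slide, and +Tx arrays 2 and 3 and the 3 KO/Y arrays were on another, so that KO/Y and -Tx ES cells never shared a slide. Summed over 10 ES cell markers, the linear signal relative to the 75th percentile was 548 to 665 in KO/Y, 658 to 708 in +Tx and 717 to 749 in -Tx ES cells, and all 10 were well above background on all 9 arrays. Most of that sum came from *Dppa5a*, with mean log2 signals of 8.78 in KO/Y, 8.83 in +Tx and 8.9 in -Tx ES cells. Over 15 endoderm markers the sum was 723 to 805 in KO/Y, 560 to 582 in +Tx and 514 to 527 in -Tx ES cells, with *Sox17* well above background in KO/Y ES cells only and *Afp* on no array. Here most of the sum came from *Sparc*, with mean log2 signals of 9.49 in KO/Y, 9.12 in +Tx and 8.99 in -Tx ES cells. The 13 endoderm markers tested all rose in KO/Y over -Tx ES cells, by 0.5 for *Sparc* to 3.13 for *Sox17*, with a median log2 fold change of 2.36. Over 15 fibroblast markers the sum was 429 to 490 in KO/Y, 357 to 383 in +Tx and 294 to 310 in -Tx ES cells. The ES cells were grown with or without fibroblast feeders, and all 15 fibroblast markers were well above background on all 9 arrays. Over 9 genes of the cleavage-stage embryo it was 180 to 207 in KO/Y, 115 to 129 in +Tx and 21.5 to 22.3 in -Tx ES cells. In such bulk RNA, fewer cells of a type and less RNA per cell cannot be told apart, and the part of these other cells in the results below was not tested.

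All 34 genes were well above background on all 9 arrays, so that none entered the fit through a single group. In KO/Y over -Tx ES cells 20 of the 34 genes fell and 4 rose, against 26.4% of all genes tested that fell and 20.6% that rose. The median log2 fold change of the 34 genes was -0.33, and that of all genes -0.06. After 4 days with Tx, in +Tx over -Tx ES cells, 10 genes fell and 1 rose, where 14.7% of all genes fell and 11.9% rose, and the median was -0.18, against -0.06 for all genes. Between the 2 states after deletion, in KO/Y over +Tx ES cells, 7 genes fell and 1 rose, where 14.1% of all genes fell and 12.1% rose, and the median was -0.07, against 0.0082 for all genes. These comparisons share arrays, and their values are therefore given side by side.

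Most of these changes were small. Over 2-fold, *Apoe* and *Srebf2* fell in KO/Y over -Tx ES cells, 2 of 34 genes where 2.85% of all genes fell by as much, and 0 of 34 rose where 4.72% of all genes did. In KO/Y over +Tx ES cells *Apoe* fell by over 2-fold, where 1.05% of all genes did, and 0 of 34 rose, where 2.37% did. In +Tx over -Tx ES cells 0 of 34 fell or rose by over 2-fold at an adjusted or an unadjusted p, against 0.762% and 1.75% of all genes. Of the 34 genes, 8 fell in both comparisons with -Tx ES cells without a call between KO/Y and +Tx ES cells, namely *Mvk*, *Pmvk*, *Mvd*, *Fdps*, *Ebp*, *Acaca*, *Abca1* and *Abcg1*, and *Elovl6* rose in the same way. *Hmgcs1*, *Idi1*, *Lss*, *Cyp51* and *Acly* fell in KO/Y ES cells over both other groups and were not called in +Tx over -Tx ES cells. *Srebf2* and *Apoe* fell in all 3 comparisons, and 10 genes were called in none. The share of all genes with each of these patterns is not given here, so that the patterns only describe the 34 genes.

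**Figure D1:**
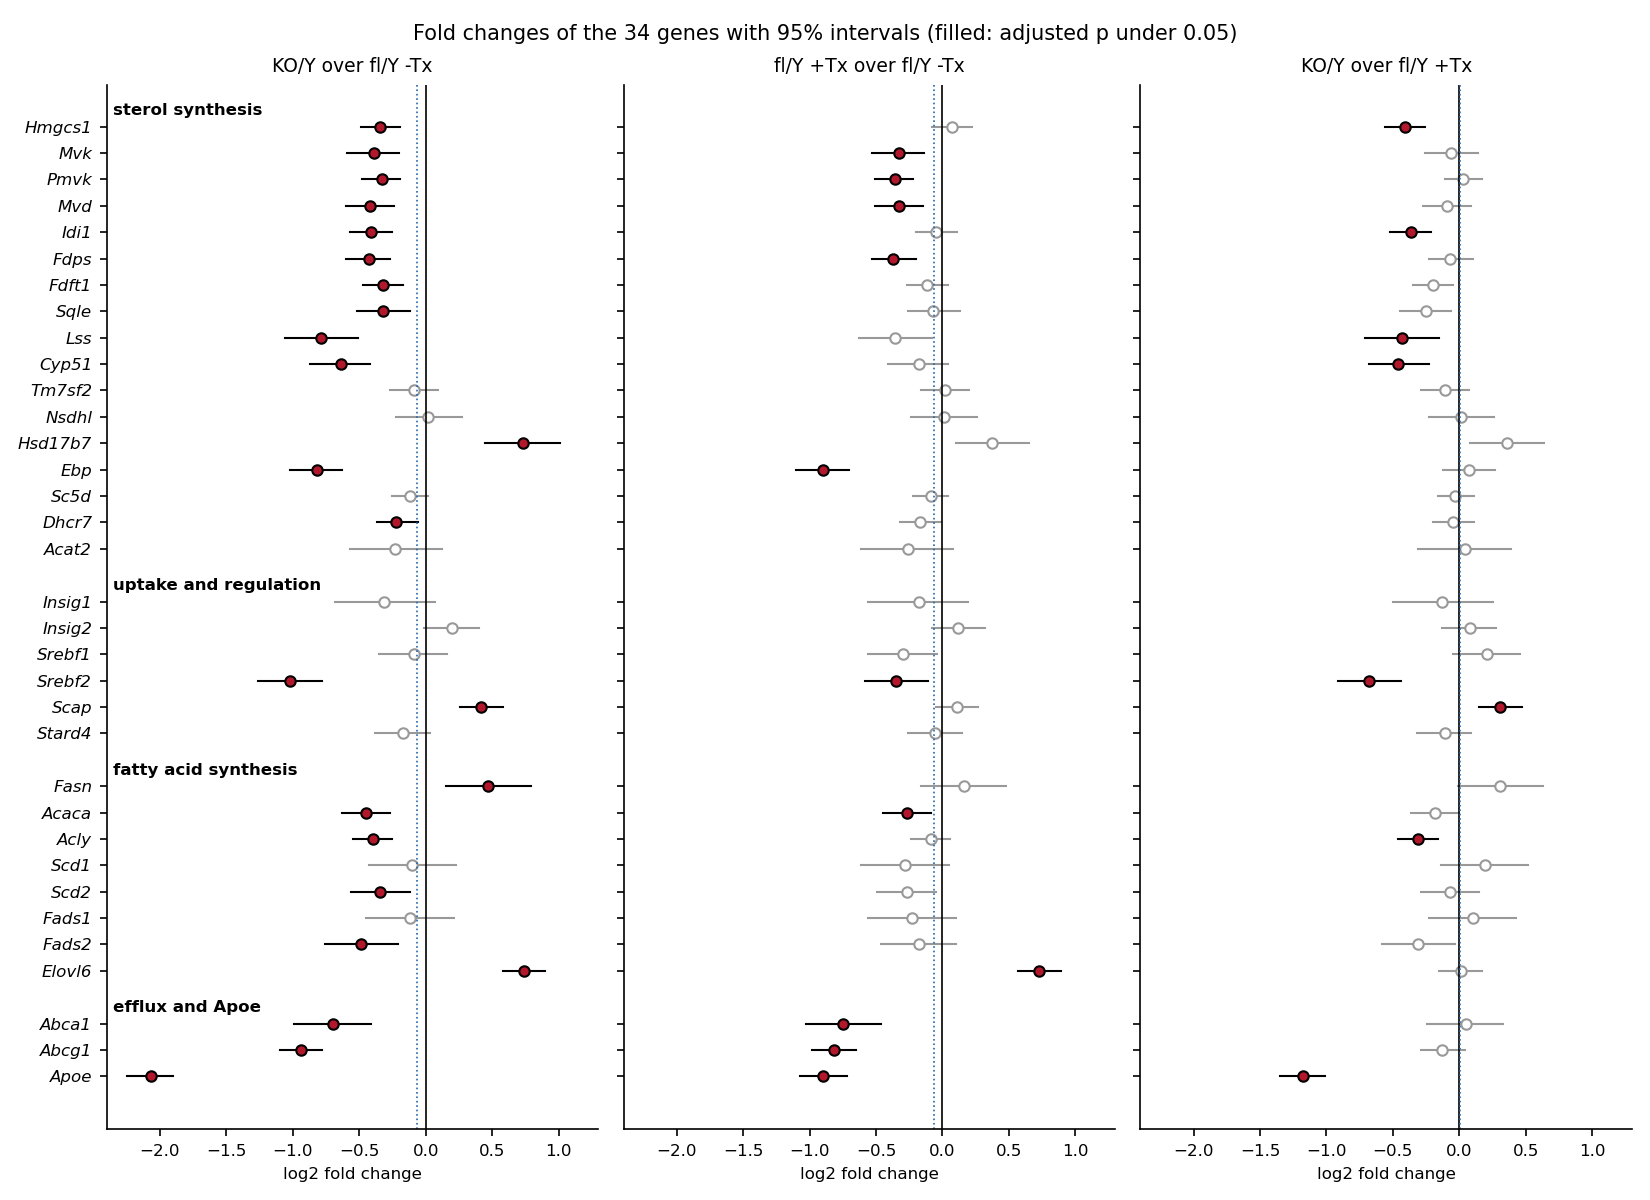
Log2 fold changes (horizontal axis) of the 34 genes, ordered by role, in KO/Y over fl/Y -Tx, fl/Y +Tx over fl/Y -Tx and KO/Y over fl/Y +Tx ES cells. Points are limma estimates with 95% confidence intervals, filled where the adjusted p was under 0.05, and the dotted line is the median of all 22434 genes. *Apoe* lies farthest left in KO/Y over fl/Y -Tx at -2.07, and *Elovl6* and *Hsd17b7* lie farthest right at 0.74 and 0.73.

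With the slide as a block, all 24 genes called in KO/Y over -Tx ES cells kept their direction, with values that moved by at most 0.22, and 9 of them were still called, *Idi1*, *Cyp51*, *Ebp*, *Srebf2*, *Acaca*, *Abca1*, *Abcg1* and *Apoe*, which fell, and *Elovl6*, which rose. The other 15 lost their call. The share of all genes called with the block is not given here, so that these counts cannot be set against it. That estimate of the slide difference rests on +Tx array 1 against +Tx arrays 2 and 3. Of the 11 genes called in +Tx over -Tx ES cells, *Ebp*, *Elovl6*, *Abca1*, *Abcg1* and *Apoe* were still called with the block. The first slide alone sets a single +Tx array against the 3 -Tx arrays, so that the spread within +Tx is not measured there, and values from it are given below without a p. All 11 kept their direction on it. On the second slide alone, all 8 genes called in KO/Y over +Tx ES cells kept their direction and 3 were called, *Apoe*, *Srebf2* and *Hmgcs1*.

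**Figure D2:**
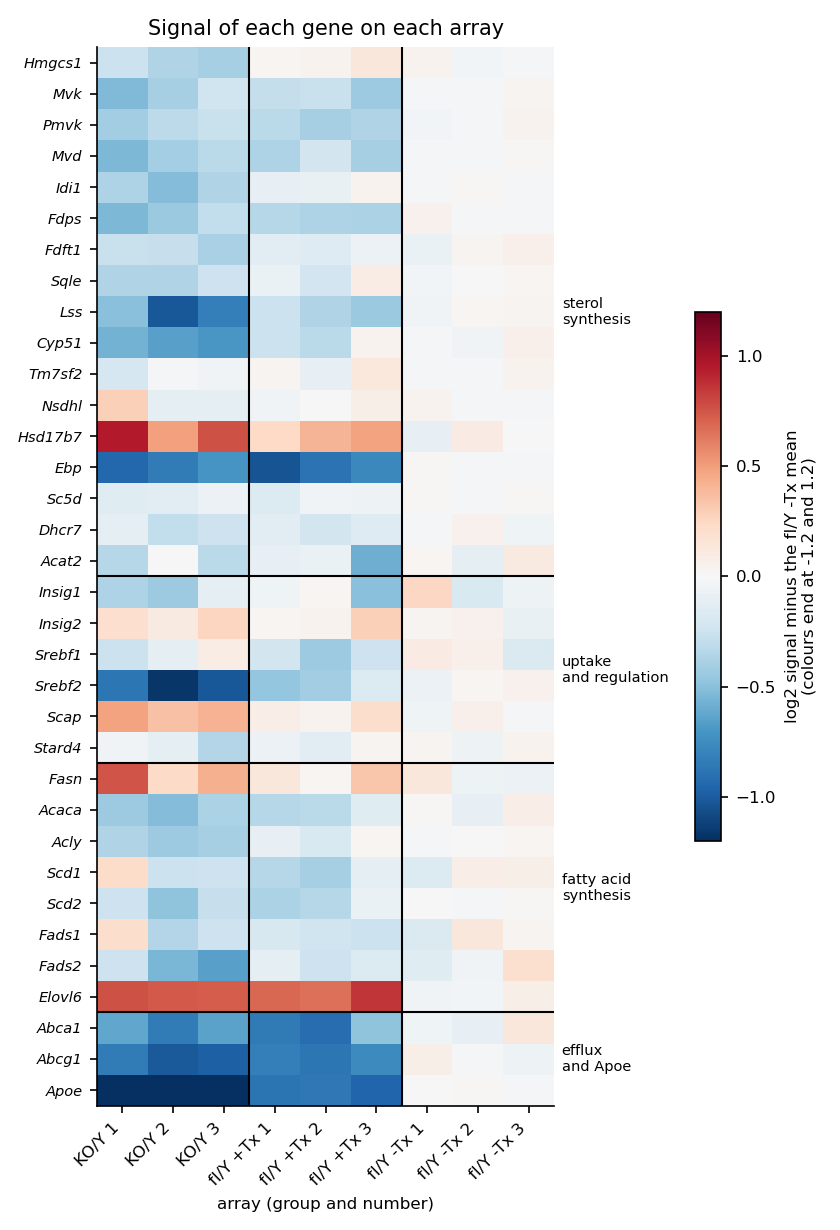
Signal of each of the 34 genes (rows, by role) on each of the 9 arrays (columns, KO/Y, then fl/Y +Tx, then fl/Y -Tx), as the log2 difference from the mean of the 3 fl/Y -Tx arrays. Blue is lower and red higher, and the KO/Y values of *Apoe* lie beyond the end of the colour scale. *Ebp*, *Abca1*, *Abcg1* and *Apoe* are blue on all 6 arrays of KO/Y and fl/Y +Tx, and *Elovl6* is red on all 6.

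Among the genes of sterol synthesis, 12 of 17 fell and 1 rose in KO/Y over -Tx ES cells (70.6% and 5.88%, against 26.4% and 20.6% of all genes), with a median log2 fold change of -0.33. With the slide as a block *Idi1*, *Cyp51* and *Ebp* of these were still called. In +Tx over -Tx ES cells 5 of 17 fell (29.4%, against 14.7% of all genes), of which *Ebp* was still called with the block, and the median was -0.17. In KO/Y over +Tx ES cells 4 of 17 fell (23.5%, against 14.1% of all genes), and the median was -0.07. By limma 0 of 17 rose in either of these comparisons, and at an unadjusted p under 0.05 1 gene, *Hsd17b7*, was higher in each. Averaged over the 17 genes, the log2 difference from the -Tx mean was -0.28 to -0.33 on the KO/Y arrays and -0.16 to -0.2 on the +Tx arrays, against -0.01 to 0.02 on the -Tx arrays, so that the arrays of the 3 groups did not overlap.

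The 5 genes of the mevalonate part that are described here had lower values in KO/Y than in -Tx ES cells, and of these 5 calls that of *Idi1* was kept with the slide as a block. *Hmgcs1*, the synthase of HMG-CoA, had log2 signals of 3.56, 3.46 and 3.42 in KO/Y and 3.84, 3.86 and 3.96 in +Tx, against 3.86, 3.79 and 3.81 in -Tx ES cells, the KO/Y arrays lying below all others and the other groups overlapping. Its log2 fold change was -0.34 (standard error 0.0643, adjusted p = 0.00249 by limma) in KO/Y over -Tx and -0.41 (adjusted p = 0.00229) in KO/Y over +Tx ES cells. *Idi1*, which isomerises isopentenyl diphosphate, behaved alike, at -0.41 over -Tx and -0.36 over +Tx ES cells (adjusted p = 0.00127 and 0.00539 by limma), and its value in +Tx over -Tx ES cells was -0.05, with a 95% interval of -0.2 to 0.11. The kinases *Mvk* and *Pmvk* and the decarboxylase *Mvd*, which act between these steps, fell by 0.39, 0.33 and 0.42 in KO/Y over -Tx ES cells and by 0.33, 0.36 and 0.33 in +Tx over -Tx ES cells, and their values in KO/Y over +Tx ES cells were -0.06, 0.03 and -0.09. With the block these 3 genes were called in neither comparison with -Tx ES cells (adjusted p = 0.199, 0.152 and 0.0528 in KO/Y and 0.198, 0.0726 and 0.087 in +Tx by limma). *Hmgcs1* had an adjusted p of 0.0521 in KO/Y over -Tx ES cells. A dimmer probe of *Mvk*, well above background on all 9 arrays, was called in neither comparison without the block. It gave -0.21 in KO/Y and -0.17 in +Tx over -Tx ES cells (adjusted p = 0.0942 and 0.216 by limma over all probes). That of *Pmvk* gave -0.41 and -0.37 (adjusted p = 0.0011 and 0.00531).

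*Fdps*, the farnesyl diphosphate synthase at the branch to squalene and prenyl groups, had log2 signals of 4.81, 4.9 and 5.05 in KO/Y and 5.01, 4.98 and 4.97 in +Tx, against 5.4, 5.33 and 5.33 in -Tx ES cells. The KO/Y and +Tx arrays overlapped each other and lay below all -Tx arrays. The log2 fold change was -0.43 in KO/Y and -0.37 in +Tx over -Tx ES cells (standard error 0.0723, adjusted p = 0.00128 and 0.00748 by limma). Neither call was kept with the slide as a block (adjusted p = 0.0807 and 0.0925). The squalene synthase *Fdft1* and the squalene epoxidase *Sqle*, which make and oxidise squalene, each fell by 0.32 in KO/Y over -Tx ES cells (adjusted p = 0.00418 and 0.0142). These calls were lost with the block (adjusted p = 0.104 and 0.199). Both genes had values of -0.12 and -0.07 in +Tx over -Tx ES cells that were not called.

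Larger changes lay around lanosterol. *Lss*, the cyclase that closes the sterol ring to give lanosterol, had log2 signals of -0.09, -0.61 and -0.41 in KO/Y and 0.15, 0.05 and -0.04 in +Tx, against 0.37, 0.43 and 0.44 in -Tx ES cells, and no group overlapped another. It was 1.72-fold lower in KO/Y than in -Tx ES cells (log2 fold change -0.79, standard error 0.122, adjusted p = 0.000842 by limma) and 1.35-fold lower than in +Tx ES cells (adjusted p = 0.032), and its value of -0.36 in +Tx over -Tx ES cells had an adjusted p of 0.0616. With the slide as a block *Lss* was called neither over -Tx (-0.64, adjusted p = 0.0815) nor over +Tx ES cells (-0.38, adjusted p = 0.0965). *Cyp51*, the demethylase that acts on lanosterol, had log2 signals of -1.24, -1.32 and -1.37 in KO/Y and -0.93, -0.99 and -0.63 in +Tx, against -0.68, -0.71 and -0.61 in -Tx ES cells. The KO/Y arrays lay below all others, and +Tx array 3 lay within the -Tx arrays. *Cyp51* was 1.56-fold lower in KO/Y than in -Tx ES cells (log2 fold change -0.64, standard error 0.0979, adjusted p = 0.000772 by limma) and 1.37-fold lower than in +Tx ES cells (adjusted p = 0.00965). Within the second slide the value over +Tx ES cells was -0.5 (adjusted p = 0.0624).

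*Ebp*, the isomerase that shifts the double bond of the sterol ring, had the largest change of the 17 genes of sterol synthesis in +Tx over -Tx ES cells. Its log2 signals were 3.02, 3.12 and 3.25 in KO/Y and 2.92, 3.07 and 3.19 in +Tx, against 3.97, 3.95 and 3.95 in -Tx ES cells, so that the KO/Y and +Tx arrays overlapped and both lay well below the -Tx arrays. It was 1.77-fold lower in KO/Y and 1.86-fold lower in +Tx than in -Tx ES cells (log2 fold changes -0.82 and -0.9, standard error 0.0865, adjusted p = 0.000102 and 0.000222 by limma). Its value in KO/Y over +Tx ES cells was 0.07, with a 95% interval of -0.12 to 0.27. Within the first slide, +Tx array 1 over the -Tx arrays gave -1.04, and with the slide as a block KO/Y over -Tx ES cells gave -1.04 (adjusted p = 0.00257).

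A single enzyme went the other way. *Hsd17b7*, the keto reductase of the complex that strips methyl groups from the sterol, was the gene of sterol synthesis that rose, and it is named here for that after its values were seen. Its log2 signals were -0.16, -0.62 and -0.35 in KO/Y and -0.87, -0.7 and -0.63 in +Tx, against -1.21, -1.01 and -1.11 in -Tx ES cells, the lowest KO/Y array lying just above the highest +Tx array and the -Tx arrays below all others. It was 1.66-fold higher in KO/Y than in -Tx ES cells (log2 fold change 0.73, standard error 0.121, adjusted p = 0.00123 by limma), while its values of 0.37 in +Tx over -Tx and 0.36 in KO/Y over +Tx ES cells were not called (adjusted p = 0.0527 and 0.0607). A second probe of *Hsd17b7* was called in all 3 comparisons, at 0.6, 0.25 and 0.35 (adjusted p = 0.000187 in KO/Y over -Tx, 0.031 in +Tx over -Tx and 0.00718 in KO/Y over +Tx ES cells). With the slide as a block the brightest probe's value in KO/Y over -Tx ES cells was 0.52 with an adjusted p of 0.127. Of the other late enzymes, *Dhcr7*, the reductase of the final step to cholesterol, fell by 0.22 in KO/Y over -Tx ES cells (adjusted p = 0.0271), a call that was lost in 6 of 17 other settings. The sterol reductase *Tm7sf2*, the dehydrogenase *Nsdhl* and the desaturase *Sc5d*, and the thiolase *Acat2* that supplies acetoacetyl-CoA, were called in no comparison, with values of -0.09, 0.02, -0.12 and -0.23 in KO/Y over -Tx ES cells.

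Promoter windows were read from RefSeq on GRCm38.p6, from 250 bases before to 50 bases after each start of transcription, and searched on both strands. The table held 26 of the 34 genes with 36 starts. Of the 17 sterol synthesis genes, 14 were in the table, also with 17 windows because some had several starts. CCAAT, the box bound by the factor NF-Y, stood in 13 of these 17 windows (76.5%), against 37.4% of all 32851 windows. GGGCGG, a box bound by Sp1, stood in 14 of 17 (82.4%), against 35.7%. In the 10 windows of uptake and regulation genes these shares were 50% for CCAAT and 80% for GGGCGG. They were 40% and 40% in the 5 windows of fatty acid synthesis genes, and 0% and 25% in the 4 of efflux genes. CACNCCAC, the core of the sterol regulatory element, stood in the windows of *Hmgcs1*, *Acat2* and *Insig1* (3 of 36 windows, 8.33%, against 6.24% of all), and CACGTG, an E-box, in 7 of 36 windows (19.4%, against 7.15%). Matches of different motifs did not overlap each other, and windows of neighbouring starts of 1 gene can overlap. In the windows of *Elovl6*, *Acaca* and *Apoe* (all 3 starts) none of the 4 strings was found. Only these exact strings were searched, so that elements with other letters were not counted. A match of letters is a description and says nothing about binding.

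The 250 bases before the start are shown for 4 sterol genes that fell in KO/Y ES cells, for the sterol gene that rose and for *Srebf2*, 5′ to 3′ on the strand of the gene, with matches on either strand to the 4 motifs in capitals (CCAAT or ATTGG for NF-Y, GGGCGG or CCGCCC for Sp1).
Hmgcs1, chr13:119690101-119690350, plus strand: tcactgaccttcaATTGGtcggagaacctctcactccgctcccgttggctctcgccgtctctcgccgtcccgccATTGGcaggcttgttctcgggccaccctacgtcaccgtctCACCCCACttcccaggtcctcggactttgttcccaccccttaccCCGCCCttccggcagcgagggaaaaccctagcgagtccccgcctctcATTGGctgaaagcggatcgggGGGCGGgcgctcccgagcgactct
Cyp51, chr5:4104698-4104947, minus strand: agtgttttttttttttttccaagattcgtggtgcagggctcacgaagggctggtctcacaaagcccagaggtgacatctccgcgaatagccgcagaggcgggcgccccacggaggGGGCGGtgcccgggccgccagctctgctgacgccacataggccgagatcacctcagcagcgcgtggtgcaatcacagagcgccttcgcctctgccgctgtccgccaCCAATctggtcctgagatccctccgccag
Lss, chr10:76531355-76531604, plus strand: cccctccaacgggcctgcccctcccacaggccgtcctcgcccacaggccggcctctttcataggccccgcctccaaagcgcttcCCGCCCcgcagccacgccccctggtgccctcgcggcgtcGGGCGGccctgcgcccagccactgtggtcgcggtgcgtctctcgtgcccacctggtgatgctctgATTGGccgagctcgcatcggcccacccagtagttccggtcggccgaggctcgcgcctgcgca
Ebp, chrX:8193513-8193762, minus strand: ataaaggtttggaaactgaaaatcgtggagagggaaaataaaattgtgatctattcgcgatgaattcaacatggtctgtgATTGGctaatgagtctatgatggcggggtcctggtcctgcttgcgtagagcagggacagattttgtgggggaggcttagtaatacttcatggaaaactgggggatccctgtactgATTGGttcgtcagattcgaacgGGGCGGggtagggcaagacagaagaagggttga
Hsd17b7, chr1:169969206-169969455, minus strand: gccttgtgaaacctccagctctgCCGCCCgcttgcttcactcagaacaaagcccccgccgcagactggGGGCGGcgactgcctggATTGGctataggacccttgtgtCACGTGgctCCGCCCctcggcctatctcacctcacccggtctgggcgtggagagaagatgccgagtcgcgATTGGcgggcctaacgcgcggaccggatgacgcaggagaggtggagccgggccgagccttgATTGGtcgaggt
Srebf2, chr15:82147019-82147268, plus strand: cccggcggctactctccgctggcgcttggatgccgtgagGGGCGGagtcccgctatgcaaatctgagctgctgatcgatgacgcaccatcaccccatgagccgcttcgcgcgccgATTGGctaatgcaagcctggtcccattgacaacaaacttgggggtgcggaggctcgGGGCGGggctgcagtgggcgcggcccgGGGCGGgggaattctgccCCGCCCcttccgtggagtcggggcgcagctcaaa
An NF-Y box and an Sp1 box stand in all 6 of these stretches, both in the 5 that belong to genes that fell and in that of *Hsd17b7*, which rose and also holds an E-box. *Hmgcs1* alone among the 6 holds the exact string CACNCCAC. Variants of this core of the sterol regulatory element were not searched, so that the other stretches may hold them.

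**Figure D3:**
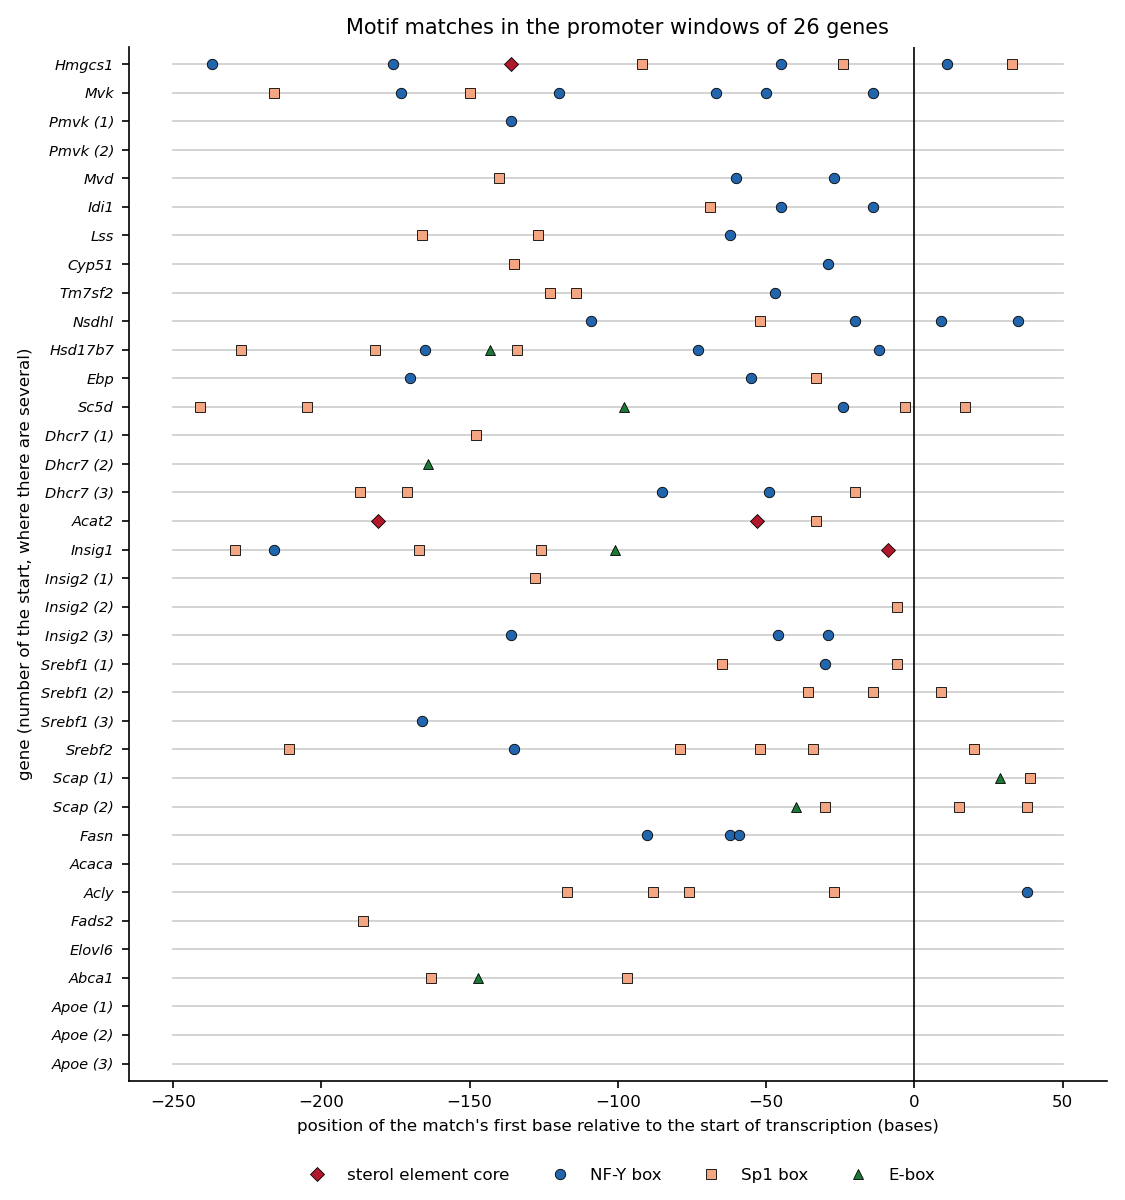
Positions of the first base of each motif match (horizontal axis, bases relative to the start of transcription) in the 36 promoter windows of 26 genes (vertical axis). Circles are NF-Y boxes, squares Sp1 boxes, diamonds cores of the sterol regulatory element and triangles E-boxes. Circles or squares lie on nearly all lines of the sterol synthesis genes at the top and on the lines of the regulation genes below them. The 3 lines of *Apoe* are empty.

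Outside the 34 genes, 7 other genes of sterol synthesis were tested. In KO/Y over -Tx ES cells 5 of these fell and 1 rose (71.4% and 14.3%), against 26.4% and 20.6% of all genes. *Lbr*, the lamin B receptor, which is also a sterol reductase, averaged 1.66 ± 0.077 in KO/Y and 2.02 ± 0.127 in +Tx, against 2.41 ± 0.0714 in -Tx ES cells (SD, n = 3 each), and fell in all 3 comparisons (log2 fold change -0.75 in KO/Y over -Tx ES cells, adjusted p = 0.000133 by limma). *Msmo1*, a methyl sterol oxidase, fell by 0.28 in KO/Y over -Tx and by 0.38 in KO/Y over +Tx ES cells (adjusted p = 0.021 and 0.0102). *Acat1*, the mitochondrial thiolase, rose by 0.65 and 0.34 in KO/Y and +Tx over -Tx ES cells (adjusted p = 0.00104 and 0.0443). Beside the fall of the sterol genes, the ES cell markers fell in 5 of 10 cases and the endoderm and fibroblast markers rose in 13 of 13 and 15 of 15 cases in KO/Y over -Tx ES cells, and their part in the result was not tested.

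Among the 6 regulators, *Srebf2* fell and *Scap* rose in KO/Y over -Tx ES cells, and the other 4 genes were called in no comparison. *Srebf2*, the main activator of sterol synthesis, had log2 signals of -0.83, -1.13 and -0.98 in KO/Y and -0.42, -0.38 and -0.12 in +Tx, against -0.03, 0.06 and 0.09 in -Tx ES cells, with no overlap between groups. It was 2.03-fold lower in KO/Y than in -Tx ES cells (log2 fold change -1.02, standard error 0.104, adjusted p = 8.89e-05 by limma), 1.6-fold lower than in +Tx ES cells (adjusted p = 0.00208) and 1.27-fold lower in +Tx than in -Tx ES cells (adjusted p = 0.041). Within the first slide +Tx array 1 over the -Tx arrays gave -0.46. Within the second slide KO/Y over +Tx ES cells gave -0.73 (adjusted p = 0.0217), and with the slide as a block KO/Y over -Tx ES cells gave -1.2 (adjusted p = 0.00482).

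A second probe of *Srebf2* did not show this fall. The brightest probe, which gave the values above, lies on chromosome 15 from 82034765 to 82034824 of mm9, and the dimmer one upstream of it from 82030068 to 82030127, both annotated to the same transcript. The dimmer probe averaged -2.74 in KO/Y, -2.41 in +Tx and -2.72 in -Tx ES cells, and its log2 fold change was -0.02 in KO/Y over -Tx and 0.31 in +Tx over -Tx ES cells (adjusted p = 0.964 and 0.472 in the limma fit over all probes). With the mean of the 2 probes *Srebf2* fell by 0.52 in KO/Y over -Tx ES cells (adjusted p = 0.0217) and stood at -0.02 in +Tx over -Tx ES cells (adjusted p = 0.948). The fall over 2-fold thus rests on 1 of the 2 probes.

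*Scap*, the sterol-sensing escort of the SREBF proteins, had log2 signals of 3.19, 3.06 and 3.13 in KO/Y and 2.79, 2.75 and 2.92 in +Tx, against 2.66, 2.77 and 2.69 in -Tx ES cells. The KO/Y arrays lay above all others, and the +Tx and -Tx arrays overlapped. It rose by 0.42 in KO/Y over -Tx and by 0.31 in KO/Y over +Tx ES cells (standard error 0.07, adjusted p = 0.00123 and 0.0125 by limma), and was not called with the slide as a block in KO/Y over -Tx ES cells (0.38, adjusted p = 0.0868) or within the second slide in KO/Y over +Tx ES cells (0.29, adjusted p = 0.118). *Srebf1*, the activator of fatty acid synthesis, had values of -0.09 in KO/Y over -Tx and -0.3 in +Tx over -Tx ES cells (adjusted p = 0.543 and 0.0839). The retention proteins *Insig1* and *Insig2* had values of -0.31 and 0.2 in KO/Y over -Tx ES cells, and a second probe of *Insig2* gave 0.14. *Stard4*, which carries sterol between membranes, stood at -0.17 by its brightest probe (adjusted p = 0.152), whereas its dimmer probe gave -0.92 (adjusted p = 0.00112 over all probes).

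Of 16 other genes of uptake, storage and regulation that were tested, 9 rose and 5 fell in KO/Y over -Tx ES cells. These shares were 56.2% and 31.2%, against 20.6% and 26.4% of all genes. *Soat1*, which esterifies cholesterol for storage, averaged -1.36 ± 0.0376 in KO/Y and -1.41 ± 0.0237 in +Tx, against -1.92 ± 0.0528 in -Tx ES cells (SD, n = 3 each), a rise of 0.56 and 0.51 over -Tx ES cells (adjusted p = 8.3e-05 and 0.000503 by limma). *Mylip*, a ligase that marks lipoprotein receptors for degradation, rose by 0.56 in KO/Y over -Tx and by 0.48 in KO/Y over +Tx ES cells, and *Osbp*, an oxysterol binding protein, by 0.57 in KO/Y over -Tx ES cells. *Scarb1*, a receptor for high-density lipoprotein, fell by 0.43 and 0.41 in KO/Y and +Tx over -Tx ES cells, and *Mbtps2*, a protease that releases the active SREBF fragments, by 0.41 and 0.4.

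**Figure D4:**
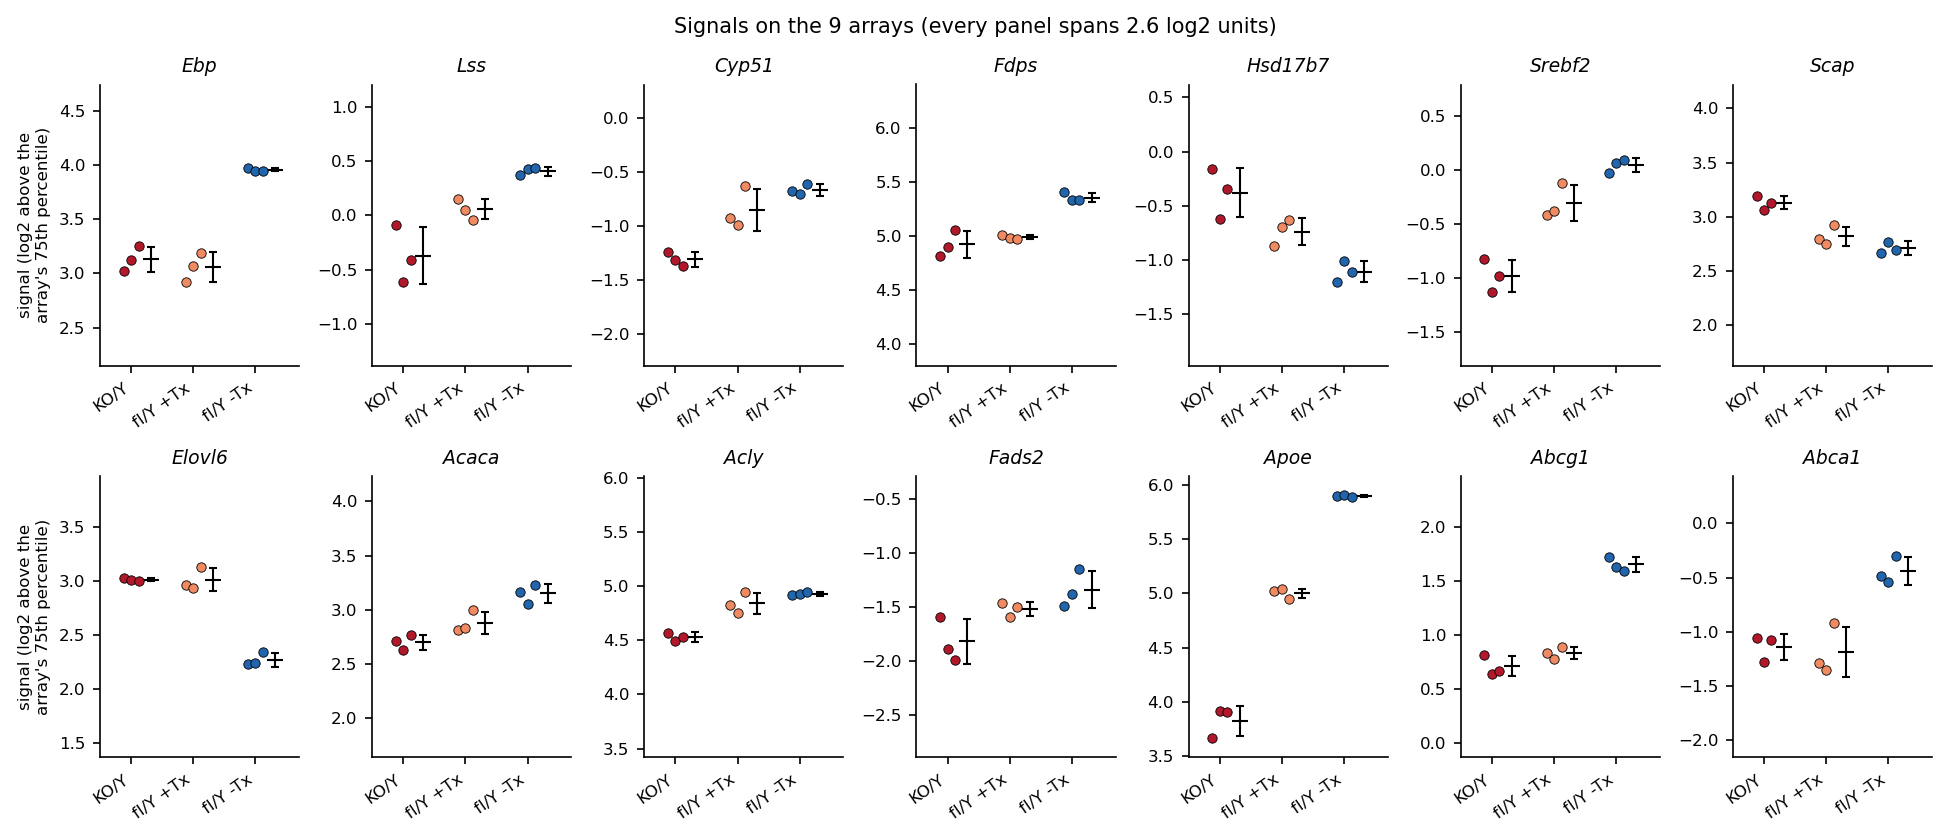
Log2 signals (vertical axis, above the 75th percentile of the array) of 14 genes on the 9 arrays, by group (KO/Y, fl/Y +Tx and fl/Y -Tx on the horizontal axis). Points are arrays, bars are the mean ± SD of 3 arrays, and every panel spans the same number of log2 units. *Ebp*, *Elovl6*, *Abcg1* and *Abca1* show KO/Y and fl/Y +Tx arrays together and apart from fl/Y -Tx. *Apoe* shows 3 separate levels, and *Scap* and *Acly* show the KO/Y arrays apart from the other 2 groups. The groups do not overlap for *Lss* and for the brightest probe of *Srebf2*. For *Lss* the highest KO/Y array, at -0.09, lies close to the lowest fl/Y +Tx array, at -0.04.

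The genes of fatty acid synthesis did not move as a group. In KO/Y over -Tx ES cells 4 of 8 fell and 2 rose (50% and 25%), against 26.4% and 20.6% of all genes, and the median was -0.23. Averaged over the 8 genes, the log2 difference from the -Tx mean was -0.21 to 0.08 on the KO/Y arrays and -0.13 to 0.06 on the +Tx arrays, against -0.05 to 0.05 on the -Tx arrays, so that the groups overlapped. In +Tx over -Tx ES cells 1 of 8 fell and 1 rose (12.5% each), near the 14.7% and 11.9% of all genes. In KO/Y over +Tx ES cells 1 of 8 fell and 0 rose by limma (12.5% and 0%), against 14.1% and 12.1% of all genes. At an unadjusted p under 0.05, 2 of 8 were lower there, *Acly* and *Fads2*, and 0 were higher.

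The 2 enzymes that supply the building blocks fell. *Acly*, the ATP citrate lyase that makes cytosolic acetyl-CoA, had log2 signals of 4.57, 4.49 and 4.53 in KO/Y and 4.83, 4.75 and 4.95 in +Tx, against 4.92, 4.93 and 4.95 in -Tx ES cells, and the KO/Y arrays lay below all others. It fell by 0.4 in KO/Y over -Tx and by 0.31 in KO/Y over +Tx ES cells (standard error 0.0661, adjusted p = 0.0012 and 0.00951 by limma). The first call was lost with the slide as a block (adjusted p = 0.0525) and the second within the second slide (adjusted p = 0.101). *Acaca*, the acetyl-CoA carboxylase that makes malonyl-CoA, had log2 signals of 2.71, 2.63 and 2.77 in KO/Y and 2.81, 2.83 and 3 in +Tx, against 3.16, 3.05 and 3.23 in -Tx ES cells, with no overlap between groups. It was 1.36-fold lower in KO/Y and 1.21-fold lower in +Tx than in -Tx ES cells (log2 fold changes -0.45 and -0.27, adjusted p = 0.00166 and 0.0354), and the value in KO/Y over +Tx ES cells was -0.18 (adjusted p = 0.137). A second probe of *Acaca*, shifted by 1 base, gave -0.45 in KO/Y over -Tx ES cells. A dimmer probe far upstream gave -0.06 (adjusted p = 0.825), and another, well above background on 5 of 9 arrays, gave -1.11 (adjusted p = 0.0879).

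*Elovl6*, which lengthens palmitate, rose in both states after deletion of *Nr0b1*. Its log2 signals were 3.03, 3.01 and 3 in KO/Y and 2.96, 2.93 and 3.13 in +Tx, against 2.23, 2.24 and 2.34 in -Tx ES cells, all 6 arrays after deletion lying above all 3 -Tx arrays. It was 1.67-fold higher in KO/Y and 1.66-fold higher in +Tx than in -Tx ES cells (log2 fold changes 0.74 and 0.73, standard error 0.0698, adjusted p = 5.58e-05 and 0.000206 by limma). Its value in KO/Y over +Tx ES cells was 0.01, with a 95% interval of -0.15 to 0.17. Within the first slide +Tx array 1 over the -Tx arrays gave 0.69, and with the slide as a block KO/Y over -Tx ES cells gave 0.67 (adjusted p = 0.0118).

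*Fasn*, the synthase that assembles palmitate, rose by 0.47 in KO/Y over -Tx ES cells (adjusted p = 0.0234 by limma), a call that was lost in 5 of 17 other settings, among them the slide as a block and those without KO/Y array 1 or without -Tx array 2 or 3. Among the desaturases, *Scd2* fell by 0.34 (adjusted p = 0.0189), with the call lost with the block and without KO/Y array 2 or -Tx array 3, and *Scd1* stood at -0.1 (adjusted p = 0.63). *Fads2*, which introduces the first further double bond into polyunsaturated fatty acids, had log2 signals of -1.59, -1.89 and -1.99 in KO/Y and -1.46, -1.59 and -1.5 in +Tx, against -1.49, -1.38 and -1.15 in -Tx ES cells. The KO/Y arrays lay below the -Tx arrays and met the +Tx arrays at -1.59. It fell by 0.49 in KO/Y over -Tx ES cells (standard error 0.122, adjusted p = 0.0106, and 0.267 with the slide as a block). The brightest probe, which gave these values, is annotated to a cDNA clone of unspecified strand. The other probe, annotated to the RefSeq mRNA of *Fads2*, gave -0.04 (adjusted p = 0.792 over all probes), so that the fall rests on the clone's probe. *Fads1*, the partner desaturase, stood at -0.12 (adjusted p = 0.528).

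**Figure D5:**
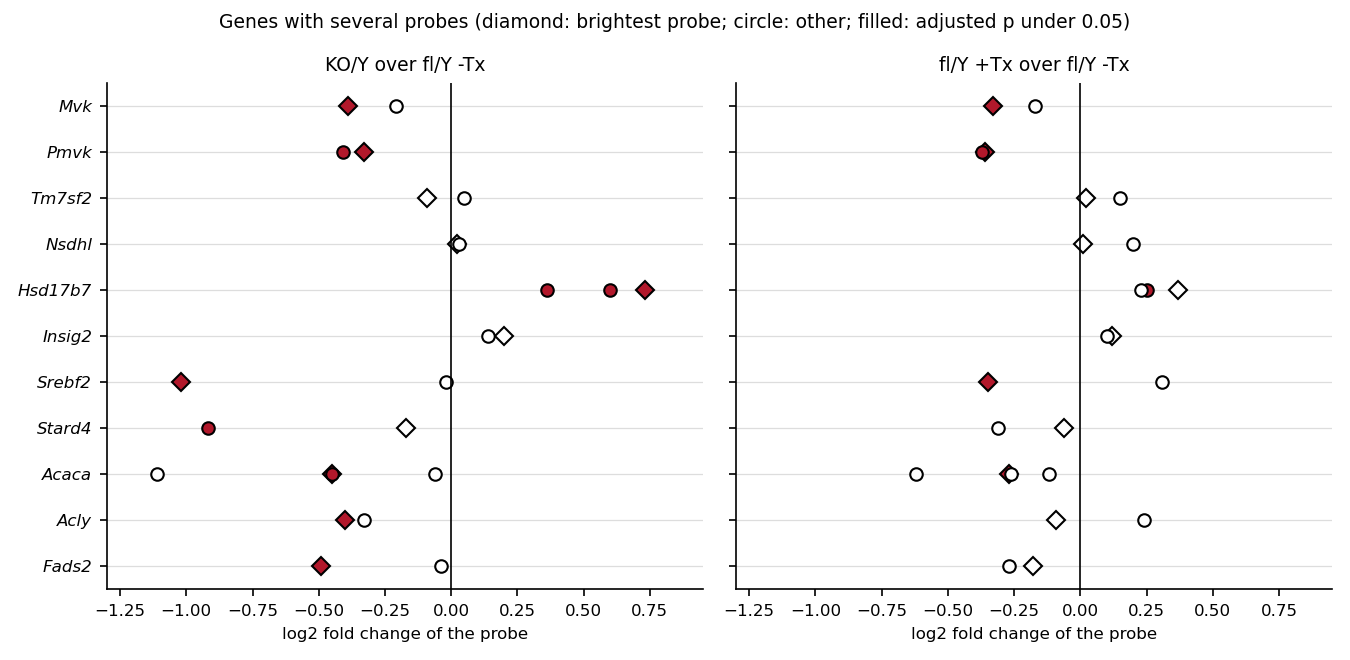
Log2 fold changes (horizontal axis) of every tested probe of the 11 genes with several probes, in KO/Y over fl/Y -Tx and fl/Y +Tx over fl/Y -Tx ES cells. Diamonds are the brightest probe, which stands for the gene in the text, circles are the other probes, and filled symbols had an adjusted p under 0.05 over all probes. The 3 probes of *Hsd17b7* lie together on the right in KO/Y over fl/Y -Tx, whereas the probes of *Srebf2*, *Stard4* and *Fads2* lie apart.

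Of 50 probes of the 34 genes, 48 were tested, and 11 genes had more than 1 tested probe. In KO/Y over -Tx ES cells all tested probes had the same sign in 10 of these 11 genes, and of 7 genes called by their brightest probe 3 had another probe called in the same direction, *Pmvk*, *Hsd17b7* and *Acaca*, whose other called probe is shifted by 1 base from the brightest. In +Tx over -Tx ES cells the signs were the same in 9 of 11 genes, and 1 of 4 called genes had another probe called in the same direction. For KO/Y over +Tx ES cells these counts were 7 of 11 and 1 of 2. The 3 probes of *Hsd17b7* rose by 0.73, 0.6 and 0.36 (adjusted p = 0.00146, 0.000187 and 0.0314 over all probes). The remaining 2 probes, 1 each of *Fdft1* and *Hmgcs1*, were at background on all 9 arrays.

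Of 23 other genes of fatty acid synthesis and activation that were tested, 6 rose and 7 fell in KO/Y over -Tx ES cells. These shares of 26.1% and 30.4% lay near the 20.6% and 26.4% of all genes that rose and fell. *Acacb*, the second acetyl-CoA carboxylase, which is tied to the control of fatty acid oxidation, averaged 0.67 ± 0.0878 in KO/Y and 1 ± 0.0991 in +Tx, against 1.68 ± 0.0589 in -Tx ES cells (SD, n = 3 each). It was 2.01-fold lower in KO/Y and 1.6-fold lower in +Tx than in -Tx ES cells (adjusted p = 1.75e-05 and 0.000493 by limma). *Me1*, the malic enzyme that supplies NADPH, rose by 0.7 in KO/Y over -Tx, by 0.3 in +Tx over -Tx and by 0.4 in KO/Y over +Tx ES cells, and *Thrsp*, a lipogenic protein, rose by 0.89 in KO/Y over -Tx ES cells (adjusted p = 0.00368). The transcription factor gene *Mlx* fell by 0.29 in KO/Y over +Tx ES cells. Among the acyl-CoA synthetases *Acsl4* rose by 0.49 and *Acsl5* fell by 0.58 in +Tx over -Tx ES cells.

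All 3 efflux genes fell in both comparisons with -Tx ES cells. *Apoe*, the apolipoprotein that carries cholesterol out of many cell types, had log2 signals of 3.66, 3.91 and 3.9 in KO/Y and 5.02, 5.04 and 4.95 in +Tx, against 5.9, 5.91 and 5.89 in -Tx ES cells. These 3 levels lay far apart compared with the spread of the arrays. *Apoe* was 4.21-fold lower in KO/Y than in -Tx ES cells (log2 fold change -2.07, standard error 0.0759, adjusted p = 2.24e-07 by limma), 2.27-fold lower in KO/Y than in +Tx ES cells (adjusted p = 2.28e-05) and 1.86-fold lower in +Tx than in -Tx ES cells (adjusted p = 0.000115). Within the first slide +Tx array 1 over the -Tx arrays gave -0.88. Within the second slide KO/Y over +Tx ES cells gave -1.17 (adjusted p = 0.00271), and with the slide as a block KO/Y over -Tx ES cells gave -2.05 (adjusted p = 0.000138). The probe lies on chromosome 7 from 20281732 to 20281791 of mm9 and was printed on 10 spots of each array.

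The transporters took a single step. *Abcg1*, which passes cholesterol to high-density lipoprotein, had log2 signals of 0.81, 0.64 and 0.67 in KO/Y and 0.83, 0.78 and 0.89 in +Tx, against 1.72, 1.63 and 1.59 in -Tx ES cells. *Abca1*, which loads lipid-poor apolipoprotein, had log2 signals of -1.06, -1.28 and -1.08 in KO/Y and -1.29, -1.35 and -0.92 in +Tx, against -0.49, -0.54 and -0.3 in -Tx ES cells. For both genes the KO/Y and +Tx arrays overlapped and lay below all -Tx arrays. *Abcg1* was 1.92-fold lower in KO/Y and 1.76-fold lower in +Tx than in -Tx ES cells (standard error of the log2 value 0.0714, adjusted p = 1.83e-05 and 0.000137 by limma), and *Abca1* was 1.62-fold and 1.68-fold lower (standard error 0.126, adjusted p = 0.00189 and 0.00377). In KO/Y over +Tx ES cells the values were -0.13 for *Abcg1* and 0.05 for *Abca1*, with 95% intervals of -0.29 to 0.04 and -0.24 to 0.33.

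*Nr1h2* and *Nr1h3*, which encode the liver X receptors and are named here after their values were seen, rose by 0.32 and 0.44 in KO/Y over -Tx ES cells (adjusted p = 0.0014 and 0.00282 by limma). In +Tx over -Tx ES cells *Nr1h2* rose by 0.18 (adjusted p = 0.0395) and *Nr1h3* stood at 0.02 (adjusted p = 0.882). Over +Tx ES cells *Nr1h3* rose by 0.42 in KO/Y ES cells (adjusted p = 0.00768). Macrophages are rich in *Apoe*, *Abca1* and *Abcg1*. Summed over 8 macrophage markers, the linear signal was 49.7 to 60.2 in KO/Y, 43.6 to 58.4 in +Tx and 49.7 to 52.8 in -Tx ES cells, ranges that overlapped. Most of that sum came from *Itgam* and *Csf1r*, whose log2 fold changes of 0.09 and -0.03 in KO/Y over -Tx ES cells were not called. Of the 7 macrophage markers tested, 5 rose and 0 fell in KO/Y over -Tx ES cells (71.4% and 0%), against 20.6% and 26.4% of all genes. The leukocyte marker *Ptprc* was well above background on 0 KO/Y and 0 +Tx arrays and on 1 -Tx array. The part of macrophages in the values of the efflux genes was not tested.

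Of 15 other genes of apolipoproteins and lipid carriers 9 were tested, and 2 rose and 2 fell in KO/Y over -Tx ES cells. These shares of 22.2% each lay near the 20.6% and 26.4% of all genes that rose and fell. *Apom*, an apolipoprotein of high-density lipoprotein, had log2 signals of -0.26, 0.15 and 0.1 in KO/Y and -2.23, -2.45 and -2.7 in +Tx, against -2.42, -2.88 and -2.61 in -Tx ES cells, and the +Tx and -Tx arrays overlapped. It was 6.2-fold higher in KO/Y than in -Tx and 5.48-fold higher than in +Tx ES cells (adjusted p = 6.36e-06 and 3.02e-05 by limma). *Mttp*, which lipidates apolipoprotein B, rose by 0.43 over each (adjusted p = 0.0269 and 0.0462). Beside these rises, 11 of the 13 endoderm markers tested rose by over 2-fold in KO/Y over -Tx ES cells, and their part in the result was not tested. *Pltp*, the phospholipid transfer protein, followed the pattern of the transporters, 1.75-fold lower in KO/Y and 1.6-fold lower in +Tx than in -Tx ES cells (adjusted p = 0.00019 and 0.00147).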

How the data were processed

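RNA of the 3 groups of ES cells was labelled with Cy3 and hybridised to SurePrint G3 mouse arrays with probes of 60 bases, 1 colour and 3 arrays per group. The authors scanned the arrays with Agilent Feature Extraction 10.7.3.1, and per the file headers the deposited intensity of a spot is background-subtracted and detrended within the array, with no scaling between arrays. The authors also deposited a table with 1 linear signal per group, which equals the geometric mean of the 3 arrays' scaled signals to within a constant and was used only as an alternative. The study names NIA Array Analysis Software for its own analysis, whose settings are not given in the sources.

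Control spots and outlier spots (117 to 178 per array) were left out, spots of a probe averaged, and log2 intensities set relative to the 75th percentile of each array. A probe was kept where all arrays of a group, in 1 group or more, were well above background, and where a gene had several the brightest was used. Groups were compared with limma 3.58.1 in R 4.3.3 in 1 fit over all 9 arrays without covariates, moderated by eBayes, and p-values were adjusted by the Benjamini-Hochberg method over 22434 genes, or over 31191 probes where single probes are given. The fit was tested on simulated data with independent noise and no slide effect, so that this test does not bear on the slide difference. No spot was saturated, and the precision is limited by the number of arrays. Which array holds which replicate is not given, so arrays are numbered by their place on the slide. Whether the *Nr0b1* probe lies in the deleted part was not determined. The array annotation gives probe positions on mm9, and promoters came from RefSeq on GRCm38.p6.

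The 34 genes, the further pathway lists and the marker lists were chosen with earlier results of these data known. Values per array are given for genes past 2-fold and, in each role, for the 2 with the largest called change in each comparison. *Hmgcs1*, *Hsd17b7* and *Abca1* lie outside this rule and were added by choice. Of the other pathway genes, up to 3 per list and comparison are named, and some genes are counted but not reported here. Alternatives were other background corrections, scalings, filters and probe summaries, an intensity trend, fewer arrays, and the slide as a block.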

Additional observations from a re-analysis of the deposited data

How the results depend on the processing

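All called values kept their direction under all alternatives run, and 9 of 24 calls in KO/Y over -Tx, 5 of 11 in +Tx over -Tx and 3 of 8 in KO/Y over +Tx ES cells were kept under all of them. With the slide as a block, 1 gene rose and 8 fell in KO/Y over -Tx ES cells (4 and 20 without the block). In +Tx over -Tx ES cells 4 fell with the block (10 without), 1 of them by over 2-fold. The shares of all genes called with the block or on 1 slide are not given here. On the second slide alone 0 rose and 3 fell in KO/Y over +Tx ES cells (1 and 7 over both slides), with fewer arrays in the fit. The count that rose in +Tx over -Tx ES cells was 2 in place of 1 with probes well above background on all 9 arrays, an intensity trend, averaged probes or only the 6 arrays compared. For KO/Y over +Tx ES cells it was 2 in place of 1 with the normexp correction, the same filter, the trend or averaged probes. The count that fell by over 2-fold in KO/Y over -Tx ES cells was 1 in place of 2 with normexp or averaged probes, and 3 with the slide as a block. The cause of these differences was not tested.

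Leaving out 1 array at a time gave 6 to 11 genes that fell in +Tx over -Tx ES cells, with 6 without -Tx array 3, and 18 to 21 that fell and 3 to 4 that rose in KO/Y over -Tx ES cells. It gave 1 to 2 that fell by over 2-fold there, with 1 without -Tx array 3 or KO/Y array 2, and 1 to 2 that rose in KO/Y over +Tx ES cells, with 2 without KO/Y array 2. Calls of *Mvk*, *Srebf2* and *Acaca* in +Tx over -Tx ES cells were lost under 9, 9 and 10 of 18 alternatives, and that of *Lss* in KO/Y over +Tx ES cells under 8 of 18. No paired analysis was possible because the arrays carry no replicate numbers.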
